A study of Bos taurus with 2 samples.

Results

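The nuclei described here are the deeply sequenced nuclei of a bovine (Bos taurus) blastoid library that carried more RNA of 3 trophoblast transcription factor genes than of 2 neuronal adhesion genes. A blastoid is a blastocyst-like structure that forms when cultured stem cells aggregate in a microwell. A barcode was a member when it held at least 4000 unique molecular identifiers (UMIs, each counting 1 captured RNA molecule) and at least 500 genes, when less than 10% of its UMIs came from the 13 mitochondrial mRNAs, and when its UMIs of GATA2, GATA3 and GRHL1 together exceeded its UMIs of DCC and CTNNA2 together. The members were thus chosen by measured UMIs of these 5 genes, which are described below but not compared as results. The gate selected 146 nuclei out of 288 deep barcodes, which was 50.7% of them (exact 95% interval 44.8 to 56.6%) and 54.1% of their UMIs. The blastoid library had 1957 barcodes and the series 2901. They are called gated nuclei below, and the 142 deep barcodes that the gate left out are called the other deep barcodes.

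The blastoids carried the genotype label WT and were formed from 3 bovine stem cell lines, with 16 bTSCs, 8 bXEN cells and 8 bEPSCs in each microwell, after depletion of iMEF feeder cells on gelatin. The aggregates were made in ACL medium, which contained LIF, activin A and CHIR99021, with the CEPT cocktail. The comparison library came from WT bovine blastocysts at day 8. Material of both kinds was frozen before nuclei were isolated, and 10x Genomics droplet libraries were sequenced. There was 1 library per group, the number of structures behind each was not given in the labels, and the lines are represented by 1 aggregate preparation. No difference below therefore has a replicate check. Differences compare these libraries or groups of their barcodes, intervals cover counting error only, and no test or p-value is given.

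The trophectoderm is the outer epithelium of the blastocyst and the source of the placental trophoblast. GATA2, GATA3, TFAP2C and CDX2 are among the transcription factors that establish or maintain it, and GRHL1 belongs to a family of epithelial regulators. In ruminants the trophoblast elongates and secretes interferon tau before it attaches to the uterus, and later its cells make pregnancy-associated glycoproteins, placental lactogens, steroids and prostaglandins.

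The blastoid library held 7575395 UMIs and the blastocyst library 7029253. The gated nuclei held 2332913 UMIs, with between 4198 and 44455 per nucleus and a median of 14843, and a median of 5154.5 genes. The other deep barcodes had a lower median, 10993.5 UMIs and 4430 genes. A further 1656 blastoid barcodes that passed the gene and mitochondrial limits lay under 4000 UMIs, with a median of 1927, and are called shallow. Ribosomal protein mRNA, which is cytoplasmic, took 2.52% of UMIs in the gated nuclei, 2.55% in the other deep barcodes and 15.6% in the shallow barcodes. The libraries shared 1 barcode sequence, and it was not a member. A doublet caller removed 2 members and none of the other deep barcodes when its highest scores were set aside.

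The label of trophoblast-like nuclei was checked against 14 trophoblast markers, 3 of which are in the gate. All 14 had UMIs in the gated nuclei, and together they came to 7340 CPM, the UMIs per 1000000 UMIs of the class. Per nucleus their sum ran from 1529 to 17627 CPM with a median of 7384. In the other deep barcodes the same sum was 2216 CPM, with a median of 2244 per nucleus, and in the shallow barcodes it was 12109 CPM. Without the 3 gate genes the remaining 11 markers came to 6332 CPM in the gated nuclei and to 2042 CPM in the other deep barcodes. MFAP5 made up 3713 and 308 CPM of these sums. It was given as a marker of this class together with the label, so it is no separate check of the label. In the shallow barcodes the 11 markers came to 11710 CPM, where KRT18 alone was at 6236 CPM. Markers of other lineages were low but not absent in the gated nuclei. The 6 epiblast markers with a symbol summed to 254 CPM, the 10 hypoblast and endoderm markers to 217, the 5 neuronal adhesion markers to 239, the 8 fibroblast markers to 9.43 with 3 at 0, and the 6 blood and endothelial markers to 15.0 with 1 at 0. In the other deep barcodes the neuronal adhesion markers summed to 8584 CPM and the epiblast markers to 583. Without DCC and CTNNA2, which are in the gate, the neuronal adhesion markers were at 183 CPM in the gated nuclei and 3815 CPM in the other deep barcodes. The hypoblast and endoderm markers, at 131 CPM in the other deep barcodes, and the blood and endothelial markers, at 9.09, were higher in the gated nuclei, whereas the fibroblast markers were at 19.2 in the other deep barcodes and lower in the gated nuclei. Of the gated nuclei 5, described further on, carried endoderm regulators, and without them the hypoblast and endoderm sum of the gated nuclei was 162 CPM, still above 131. GATA6, whose level is given below, made up most of the 162 CPM and was higher in the gated nuclei than in the other deep barcodes. Among the deep barcodes the trophoblast and neuronal sums without gate genes lay in the direction of the label, the trophoblast sum mostly through MFAP5. The hypoblast and endoderm sum did not, which rested largely on GATA6.

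Most members lay far from the gate boundary. A margin of at least 10 UMIs was found in 106 of the 146, and 66 had no UMI of DCC or CTNNA2. Of the other deep barcodes, 122 lay at least 10 UMIs on the far side and 60 had no UMI of the 3 trophoblast genes. Just inside the boundary, with a margin of 1 or 2 UMIs, were 6 members, whose MFAP5 UMIs were 0, 0, 0, 3, 0 and 7 in order of decreasing depth. Just outside it were 8 barcodes with a margin from 0 to -2. The deepest of these held 38 UMIs of the trophoblast genes, 40 of the neuronal genes and 65 of MFAP5. At least 3 UMIs of both gene sets were present in 32 deep barcodes, 11 of them members and 21 not. Those 32 were deeper than the rest, with a median of 20576.5 UMIs. None of the 32 was among the 30 blastoid barcodes set aside for the highest doublet scores. Ratios against the other deep barcodes that moved by over 1.5 times without the 21 are also given against the remaining 121 barcodes.

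**Figure D1:**
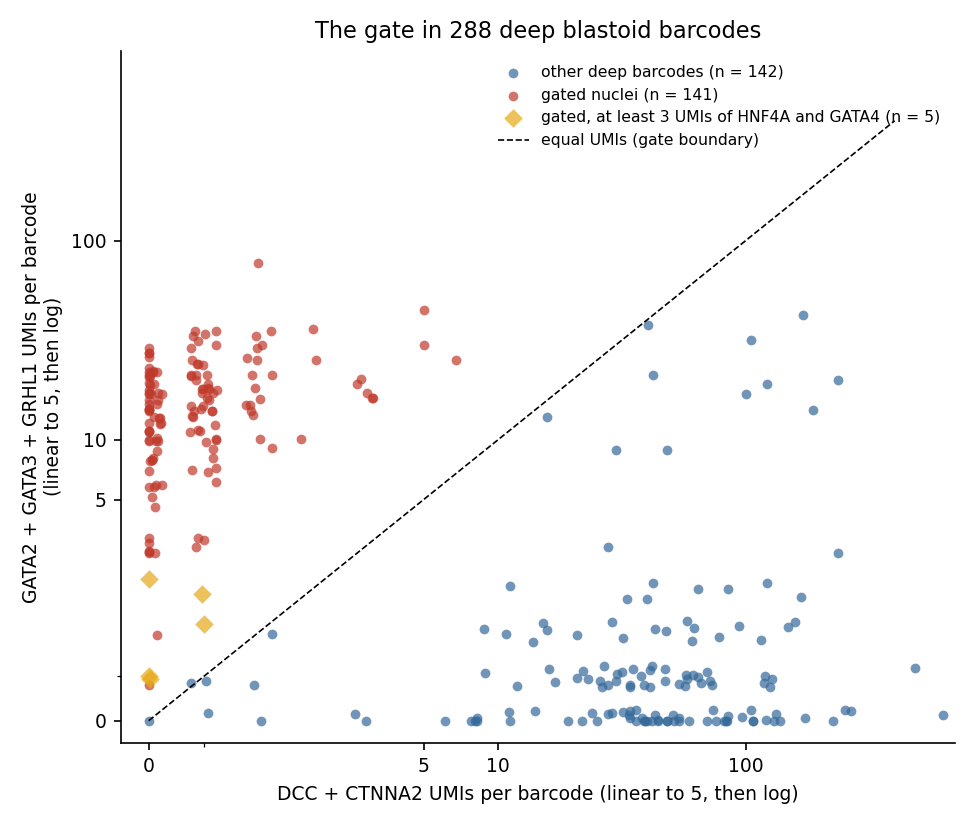
UMIs of GATA2, GATA3 and GRHL1 (vertical axis) against UMIs of DCC and CTNNA2 (horizontal axis) in each of the 288 deep blastoid barcodes, with both axes linear to 5 and logarithmic above and points jittered slightly. Each point is a barcode. The 141 gated nuclei in red mostly lie high on the left, the 142 other deep barcodes in blue mostly low on the right, and 5 gated nuclei with endoderm regulators, in yellow, sit at the bottom left near the dashed boundary.

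The gate genes themselves are given as a description, since they chose the members. GATA2 was at 342.5 CPM in the gated nuclei (exact Poisson interval 319 to 367) and had a UMI in 135 of the 146. GATA3 was at 176 CPM with a UMI in 127 nuclei, and GRHL1 at 489 CPM with a UMI in 144. In the 121 other deep barcodes without both gene sets these genes were at 18.9, 9.46 and 25.7 CPM.

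MFAP5, which encodes a protein of extracellular microfibrils, was among the genes with the highest ratios that the gate did not use. It had 8663 UMIs in them, or 3713 CPM (3636 to 3792), and per nucleus it ran from 0 to 12049 CPM with a median of 3489. The other deep barcodes had 307.7 CPM and a median of 0, and their highest barcode reached 3394 CPM. The ratio was 12.1 (11.1 to 13.1) and became 62.5 (50.7 to 78.0) without the 21 barcodes that held both gene sets. At least 1 MFAP5 UMI was found in 137 of 146 gated nuclei (93.8%) and in 32.2% of the 121 other deep barcodes, at median depths of 14843 and 10088 UMIs. After each nucleus was thinned to 4000 UMIs these shares were 92.5% and 19.0%. The ranges overlapped, since 9 gated nuclei had no MFAP5 UMI while some other deep barcodes had many.

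Comparing the gated nuclei with the other deep barcodes contrasts groups that the gate itself separated, so the counts that follow describe the gate's outcome. Of 10099 genes whose UMIs in both sums added up to 50 or more, 1536 were at least 2-fold higher (15.2%) and 1690 at least 2-fold lower (16.7%) in the gated nuclei. Without the 21 barcodes with both gene sets, 17.9% of 9700 genes were higher and 16.9% lower. The median log2 ratio of all genes was 0.04 in each case. Where a gene had 200 or more UMIs over both sums, the 10 highest ratios included those of RADX, MFAP5, SLC35F4, GALNT17, SLCO4C1, TRPV5, MFAP3L and KCTD8.

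KCTD8, an auxiliary subunit of GABA-B receptors, had 8467 UMIs in the gated nuclei and ran from 0 to 21988 CPM per nucleus with a median of 2504. Its summed level was 3629 CPM against 390.0 in the other deep barcodes, a ratio of 9.31, or 25.5 without the barcodes that held both sets. TRPV5, an epithelial calcium channel, was at 302 CPM with a UMI in 127 nuclei, and its ratio of 9.65 (7.43 to 12.7) became 49.7 without the mixed barcodes. RADX, which encodes a protein that acts at replication forks, was at 141 CPM against 11.6, a ratio of 12.1 (7.95 to 19.4) that became 26.1 (13.1 to 61.0). TLL1, a metalloprotease of the BMP1 family, was at 1787 CPM against 221.8, a ratio of 8.06 that became 27.3. GALNT17, a member of the GalNAc-transferase family, was at 368 CPM against 36.9, but 62 of 146 gated nuclei had no UMI of it. These genes were therefore high in the sum to different degrees of evenness: TRPV5 and MFAP3L, the latter at 376 CPM with a UMI in 138 nuclei and a ratio of 9.42 that became 29.3, were present in most members, whereas GALNT17 and RADX were present in 84 and 79.

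**Figure D2:**
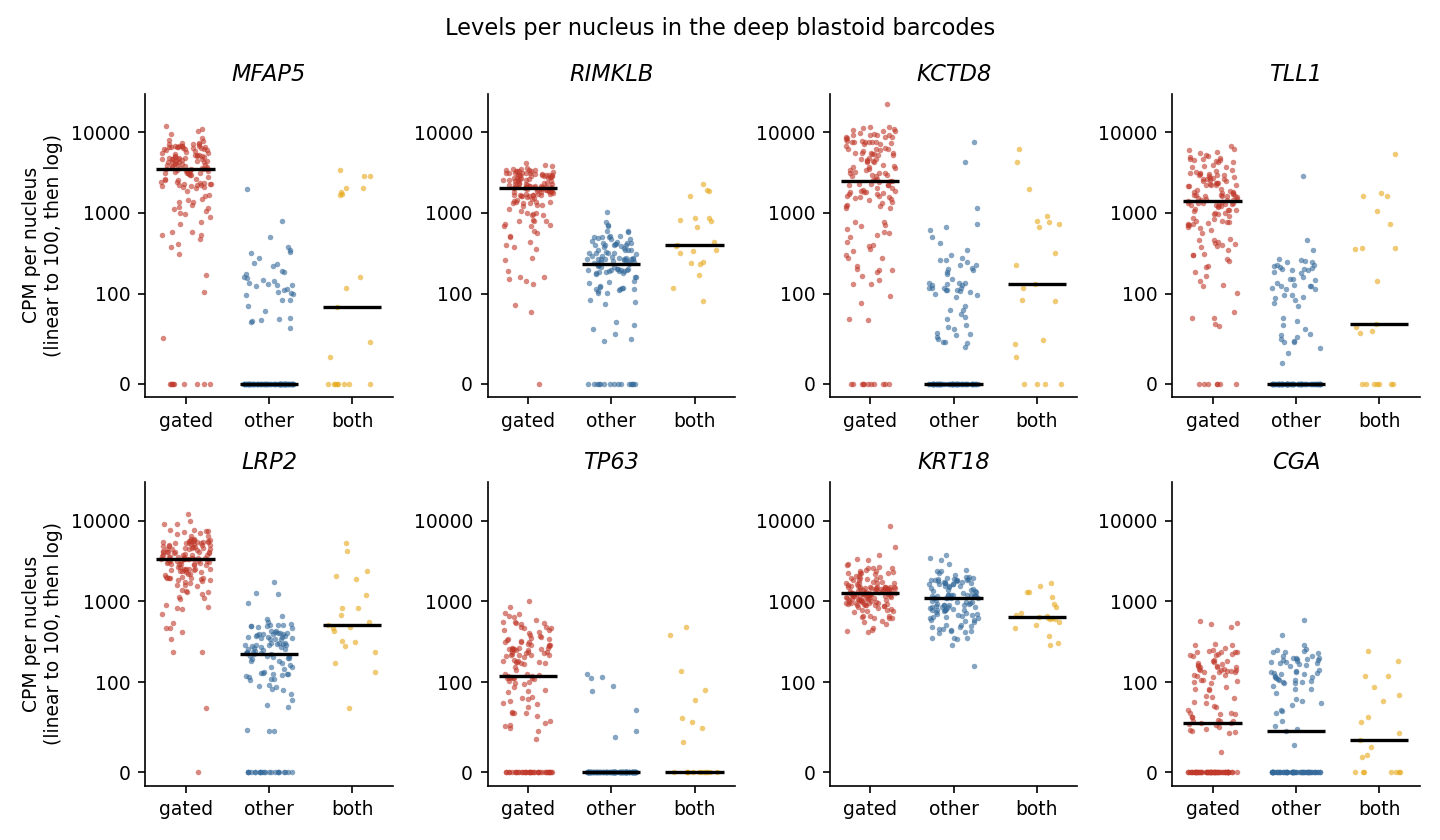
CPM per nucleus (linear to 100, then logarithmic) of 8 genes in the 146 gated nuclei, the 121 other deep barcodes without both gene sets and the 21 other deep barcodes with both. Points are barcodes and bars are medians. MFAP5, RIMKLB, KCTD8, TLL1, LRP2 and TP63 have higher medians in the gated nuclei than in the 121, the 21 mixed barcodes lie between for several genes, and KRT18 and CGA overlap widely in all 3 groups.

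The genes at the other end of the same comparison were nearly absent from the gated nuclei. SRGAP3, a GTPase-activating protein of neuronal migration, had 9 UMIs in all gated nuclei against 1031 in the other deep barcodes and was 135-fold lower (70.8 to 296). MLLT3, a subunit of the super elongation complex, was at 24.0 CPM against 2368 and was 98.6-fold lower. TENM4, a teneurin adhesion protein, was 95.6-fold lower, and PAX3, a transcription factor of neural crest and muscle precursors, had 42 UMIs against 2593 and was 72.8-fold lower. CDH6 and SLIT2, a cadherin and a guidance cue, were 69.0-fold and 65.7-fold lower.

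Transcription factors of the trophoblast were described from a list of 32 genes. Outside the gate genes, 15 had enough UMIs to count, and 11 were at least 2-fold higher in the gated nuclei, 1 lower and 3 between, where 15.2% of all genes were higher and 16.7% lower. The median log2 ratio was 1.77 against 0.04 for all genes. TP63, the epithelial stem cell factor of the p53 family, was at 196 CPM with a UMI in 108 of 146 nuclei (74.0%), against 22.2 CPM in the other deep barcodes. Its per-nucleus level ran from 0 to 1015 CPM with a median of 119, and the ratio was 8.83 (6.47 to 12.3), or 36.3 without the mixed barcodes. ESRRB, an orphan nuclear receptor of mouse trophoblast stem cells, was at 70.7 CPM, a ratio of 7.00 that became 20.9 (8.80 to 65.4). TFAP2C and TFAP2A, factors of the AP-2 family, were at 48.9 and 71.2 CPM with ratios of 5.69 and 4.54. KLF5 was at 227 CPM with a ratio of 5.23, and TBX3 at 102 CPM with 5.29, which became 8.63 and 8.85. GRHL2, KLF6, ETS2, CDX2 and TEAD4 had ratios of 3.41, 3.49, 2.84, 2.58 and 2.14, and that of TEAD4 became 3.48.

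Some of these factors were sparse in single nuclei. CDX2, the caudal homeobox factor of the trophectoderm, had 85 UMIs in all gated nuclei and was detected in 57 of them (39.0%), against 16.2% of the other deep barcodes. After thinning the shares were 17.8% and 6.34%. ELF5, a factor of the trophoblast stem cell state, had 36 UMIs in the gated nuclei and 12 in the others and was not counted in the list. ASCL2, a basic helix-loop-helix factor of placental progenitors, was at 27.0 CPM against 23.7, a ratio of 1.14 (0.767 to 1.70), so these counts did not separate the groups. SATB1 was the factor that was lower, at 36.4 CPM against 85.9, or 2.36-fold lower.

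Of 28 counted genes of the epithelial list, 12 were at least 2-fold higher in the gated nuclei, 1 lower and 15 between, where 15.2% of all genes were higher and 16.7% lower, and the median log2 ratio was 0.95 against 0.04 for all genes. CDH1, the epithelial cadherin, was at 419 CPM with a UMI in 142 of 146 nuclei and a median of 368 CPM, against 111 CPM and a median of 0 in the other deep barcodes, a ratio of 3.77 (3.25 to 4.38). The desmosome genes DSP and PKP2 were at 329 and 610 CPM with ratios of 4.28 and 3.59, and that of PKP2 became 6.19 without the mixed barcodes. The tight junction genes TJP3, OCLN and CGN had log2 ratios of 2.31, 1.87 and 1.44. SLC9A3, a sodium-proton exchanger of apical membranes, was at 166 CPM against 37.4, and EZR, which links microvilli to actin, at 703 against 243. The gene that was lower was ATP1B1, a sodium pump subunit with 12 UMIs in the gated nuclei, which was 4.03-fold lower.

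The 4 keratins on the list lay within 2-fold, as did EPCAM, an epithelial adhesion molecule, and the tight junction genes TJP1, CLDN4, CLDN6 and CLDN7, whose log2 ratios ran from 0.29 to 0.86. KRT18, a keratin of simple epithelia, was at 1268 CPM in the gated nuclei and 895 in the other deep barcodes, a ratio of 1.42 (1.34 to 1.50), and it had a UMI in every nucleus of both groups. KRT8, KRT7 and KRT19 had log2 ratios of 0.52, 0.45 and 0.24. KRT18 was at 6236 CPM in the shallow barcodes, above both deep groups.

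The ruminant placental list held 23 genes with a symbol in the files, of which 14 could be counted. In the gated nuclei 7 were at least 2-fold higher than in the other deep barcodes and none lower, where 15.2% of all genes were higher and 16.7% lower. MFAP5 is among the 7. GDA, guanine deaminase, was at 718 CPM with a UMI in 125 nuclei, against 148 CPM, a ratio of 4.86 that became 22.6 (16.9 to 30.9) without the mixed barcodes. PTGS2, the inducible prostaglandin synthase, was at 499 CPM against 117, a ratio of 4.25, and ran from 0 to 1870 CPM per nucleus with a median of 393. PAG1 is on the list by its symbol, which RefSeq gives to a gene away from the pregnancy-associated glycoprotein cluster, so it cannot be taken for a glycoprotein gene here, although it is counted among the 7. It was at 81.9 CPM with a UMI in 78 nuclei, a ratio of 3.12 (2.28 to 4.32). SSLP1, a secreted trophoblast protein, was at 272 CPM against 112, and HPSE, heparanase, at 27.4 against 5.05, a ratio of 5.43 that became 10.2 (3.78 to 38.4). TKDP4, a trophoblast Kunitz domain protein, had 63 UMIs, all within 14 nuclei. The remaining genes differed less. CGA, the common subunit of glycoprotein hormones, was at 76.7 CPM against 61.1 (ratio 1.26, 0.991 to 1.59), and PAGE4 had 266 against 233.

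The 7 counted genes of that list that lay within 2-fold between the deep groups were all at least 2-fold higher in the shallow barcodes than in the gated nuclei. SSLP1, which was higher in the gated nuclei than in the other deep barcodes, was also higher in the shallow barcodes, with a log2 ratio of -1.51 for gated over shallow. CGA was at 364 CPM in the shallow barcodes, and PAGE4, a member of the PAGE antigen family, at 1497. By contrast MFAP5 was at 204 CPM in the shallow barcodes, GDA at 53.9 and PAG1 at 9.86, all below the gated nuclei. Against the shallow barcodes, 38.1% of 10369 genes were at least 2-fold higher in the gated nuclei and 23.1% lower, with a median log2 ratio of 0.48 for all genes. Depth and the share of ribosomal protein UMIs moved with this comparison, and their part in it was not tested.

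Of 15 counted genes of steroid and prostaglandin metabolism, 4 were at least 2-fold higher and 2 lower, where 15.2% of all genes were higher and 16.7% lower. HSD3B1, which makes progesterone from pregnenolone, was at 72.9 CPM against 6.57, a ratio of 11.1 (6.32 to 21.3) that became 21.6 (9.07 to 67.3) without the mixed barcodes, and had a UMI in 73 of the 146 gated nuclei. PLA2G4A, the phospholipase that releases arachidonic acid, was at 134 CPM with a UMI in 78 nuclei, a ratio of 8.85 (6.08 to 13.3) that became 24.8 (12.4 to 58.0). SULT1E1, an estrogen sulfotransferase, was at 240 CPM against 74.3, a ratio of 3.23 that became 4.73 without the mixed barcodes, and ran from 0 to 4389 CPM per nucleus. CYP11A1 and CYP19A1, which make pregnenolone and estrogens, had 13 and 14 UMIs in all gated nuclei.

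LRP2, the giant endocytic receptor megalin, was at 3674 CPM in the gated nuclei, with a median of 3357 per nucleus and a UMI in 145 of 146. The other deep barcodes had 487 CPM and a median of 242, a ratio of 7.54 (7.06 to 8.07) that became 14.4 without the mixed barcodes. DAB2, its endocytic adaptor, was at 967 CPM against 164, a ratio of 5.91 that became 13.6. Both genes were on the hypoblast and endoderm list, together with GATA6 at 107 CPM against 24.2, a ratio of 4.42 that became 7.93. These 3 were the members of that list that were at least 2-fold higher, while 3 were lower, KIT and COL18A1 among them, and 10 of 16 lay between, shares near the 15.2% and 16.7% of all genes that were higher and lower. SLC34A2, a phosphate transporter, was at 337 CPM against 39.4, a ratio of 8.55 (6.77 to 10.9) that became 26.3 (16.7 to 43.8). SLC40A1, the iron exporter ferroportin, was at 154 CPM against 37.4, and SLC7A11, the cystine transporter, at 69.9 against 18.2, a ratio of 3.84 that became 14.8. Beside the same shares, 7 of 19 transporters were at least 2-fold higher, 11 lay between and 1 was lower, SLC38A1, with a log2 ratio of -3.51, and the median of the list was 0.64 against 0.04 for all genes.

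Receptors of growth factors differed in both directions. EGFR, the epidermal growth factor receptor, was at 677 CPM with a UMI in 141 nuclei and a median of 590, against 112 CPM and a median of 0, a ratio of 6.07 (5.27 to 7.01) that became 12.9 (10.2 to 16.4) without the mixed barcodes. ERBB2 and ERBB3, of the same family, had log2 ratios of 1.52 and 1.50, and ERBB4 of -1.07. FGFR1 and FGFR2, receptors of fibroblast growth factors, were lower in the gated nuclei, at 39.4 CPM against 316 and 71.2 against 456, or 8.02-fold and 6.40-fold lower. IGF1R was 3.05-fold lower. Of 14 counted genes of the FGF and EGF list, 3 were at least 2-fold higher and 5 lower, where 15.2% of all genes were higher and 16.7% lower.

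Of 18 counted genes of the TGF-beta, BMP and LIF pathways, 7 were at least 2-fold lower and 1 higher, where 16.7% of all genes were lower and 15.2% higher, and the median log2 ratio of the list was -0.92. BMP4, a ligand, was at 8.14 CPM against 86.9 and was 10.7-fold lower. STAT3, the transcription factor that LIF activates, had 10 UMIs against 72 and was 8.49-fold lower. TGFBR2, the type II receptor of TGF-beta, was the gene that was higher, at 59.2 CPM against 26.3. Of 16 WNT genes, to be read against the same shares, LEF1, LGR5, NKD1 and ZNRF3 were lower, LEF1 at 17.6 CPM against 491, and FZD6 was higher. In the Hippo list, also beside those shares, 5 of 17 genes were higher, among them NF2 at 275 CPM against 80.8, a ratio of 3.40 that became 5.42 without the mixed barcodes, and 2 were lower, with AMOTL1 11.4-fold lower.

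Of 19 counted neural adhesion genes outside the gate, 18 were at least 2-fold lower in the gated nuclei and 1 was higher, with a log2 ratio of 1.90. Of all genes 16.7% were lower and 15.2% higher. The median log2 ratio of the list was -4.00. CDH2, the neural cadherin, was at 58.7 CPM against 1262 and was 21.5-fold lower, and its per-nucleus median was 0 against 1208 CPM. Its log2 ratio went from -4.43 to -5.30 without the 5 gated nuclei with endoderm regulators. The mesenchymal factors ZEB1 and ZEB2 had log2 ratios of -3.71 and -5.62. Among imprinted genes SGCE and PLAGL1 were 15.0-fold and 10.3-fold lower, with SGCE going from a log2 ratio of -3.90 to -4.73 without those 5 nuclei, and SFMBT2 was higher with a log2 ratio of 1.40. In the chromatin list DNMT3A, a DNA methyltransferase, was at 321 CPM against 92.5, while HMGA2 was 7.54-fold lower.

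Most cell cycle genes lay within 2-fold between the deep groups. Of 25 S phase genes, CDT1 was at least 2-fold higher and UHRF1 lower, and of 25 G2/M genes NCAPG alone was lower by at least 2-fold, where 15.2% of all genes were higher and 16.7% lower. MKI67, a marker of cycling cells, was at 87.4 CPM against 91.9, and TOP2A at 225 against 295. Stress genes had 5 of 16 at least 2-fold higher and none lower, beside the same shares. FOS, an immediate early gene, was at 61.3 CPM against 8.08, and PSAT1, a serine synthesis enzyme, at 56.6 against 15.2. EPAS1, a hypoxia-inducible factor subunit, was at 357 CPM against 45.0, a ratio of 7.94 that became 20.3 without the mixed barcodes, and VEGFA at 102 against 31.3, while 14 of the 17 genes of the glycolysis and hypoxia list lay within 2-fold and 3 were higher, a share near that of all genes.

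**Figure D3:**
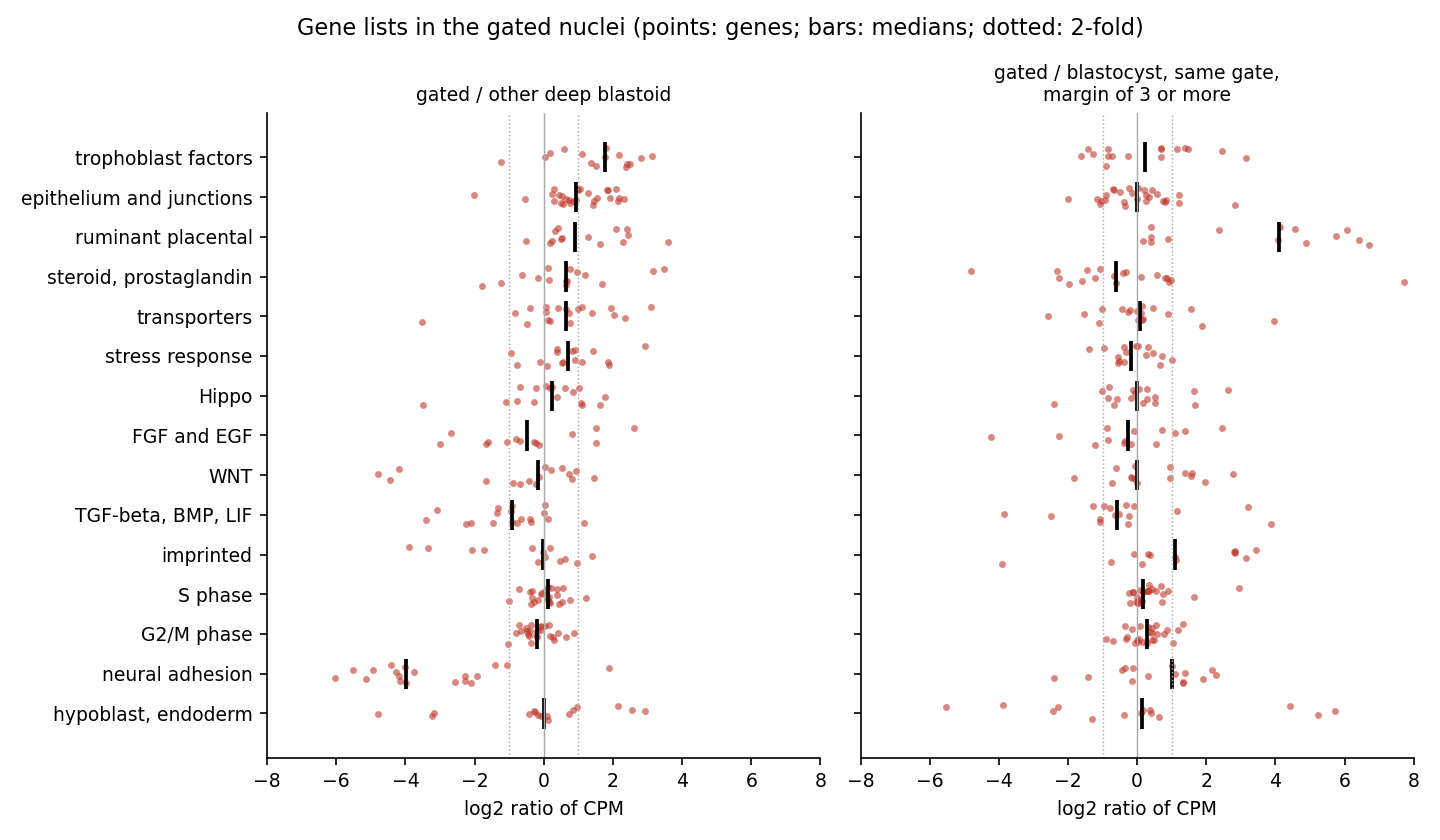
Log2 ratios of CPM for the genes of 15 lists, gated nuclei over the other deep blastoid barcodes (left) and over blastocyst nuclei under the same gate with a margin of at least 3 UMIs (right). Points are genes with 50 or more UMIs over both sums, bars are list medians and dotted lines mark 2-fold. On the left the trophoblast factors lie to the right (median 1.77) and neural adhesion to the left (median -4.00), and on the right the ruminant placental genes have the median farthest from 0 of the 15 lists shown (4.10).

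The blastocyst library was gated in the same way for comparison. Of its 693 deep barcodes 377 met the gate, but 130 of them had a margin of only 1 or 2 UMIs, and KIT and PDGFRA, both on the hypoblast list, were at 260 and 121 CPM in the 377. The values below therefore use the 247 blastocyst nuclei with a margin of at least 3 UMIs, whose median was 9286 UMIs, and the full 377 where stated. The gated blastoid nuclei were kept under the gate as given, so the margins of both sides differ. In the 247 the hypoblast and endoderm markers still summed to 659 CPM and the blood and endothelial markers to 105. The gated blastoid nuclei had 217 and 15.0 CPM. The part of such RNA in the differences below was not tested. Against the 247, 14.1% of 10058 genes were at least 2-fold higher in the gated blastoid nuclei and 12.1% lower. Against the 377, 12.9% of 10940 genes were higher and 14.5% lower.

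Many genes that marked the gated nuclei within the blastoid library lay within 2-fold of the blastocyst nuclei. MFAP5 was at 3713 CPM against 2827 (ratio 1.31), LRP2 at 3674 against 2798, DAB2 at 967 against 741, and RIMKLB at 2003 against 2089. EGFR was at 677 CPM against 724, TRPV5 at 302 against 331, NF2 at 275 against 286, and PTGS2 at 499 against 441. KCTD8 was at 3629 CPM against 4424, and it was as high, 4337 CPM, in the 316 other deep blastocyst nuclei. KCTD8 therefore distinguished the gated nuclei within the blastoid library and did not distinguish the gated nuclei within the blastocyst library. MFAP5 was at 953 CPM in those other blastocyst nuclei, below the 247. The keratins KRT18 and KRT8, which had lain within 2-fold between the deep blastoid groups, were also within 2-fold of the 247, at 1268 CPM against 1067 and 568 against 558.

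The transcription factors split between the libraries. Higher in the gated blastoid nuclei were TP63, at 196 CPM against 36.0 (ratio 5.45, 4.36 to 6.87), TFAP2A, at 71.2 against 25.8, ASCL2, at 27.0 against 3.03 (ratio 8.90, 4.25 to 21.5), and ETS2 and ID2 with log2 ratios of 1.38 and 1.16. TP63 had a UMI in 17.0% of the 247 blastocyst nuclei and in 74.0% of the blastoid nuclei, or 9.31% and 47.9% after thinning. Lower in the gated blastoid nuclei were ESRRB, at 70.7 CPM against 217 or 3.06-fold lower, TBX3, 2.65-fold lower, and KLF5, 2.42-fold lower. CDX2, TFAP2C, TEAD4 and GRHL2 lay within 2-fold. Of 16 counted factors 5 were at least 2-fold higher and 3 lower, where 14.1% of all genes were higher and 12.1% lower. GATA6, a regulator of the hypoblast, was 5.39-fold lower, at 107 CPM against 578 in the blastocyst nuclei.

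Of 14 counted ruminant placental genes, 9 were at least 2-fold higher in the gated blastoid nuclei and none lower, where 14.1% of all genes were higher and 12.1% lower. The median log2 ratio of the list was 4.10. The list named 39 genes and was chosen with earlier results of these data known, so these counts are a description of the counted genes. GDA was at 718 CPM against 6.83, a ratio of 105 (66.3 to 178). PAGE4 had 266 CPM against 4.93, and SSLP1 at 272 against 16.3. CGA had 179 UMIs in the gated nuclei and 0 in the 247 blastocyst nuclei, and AFP, an endoderm secretory gene, had 99 against 0. CGA, PAGE4 and AFP were within 2-fold in both deep blastoid groups, as given above for CGA and PAGE4 and at 42.4 and 39.9 CPM for AFP. CGA and PAGE4 were highest in the shallow barcodes, and the part of free RNA in their level in the gated nuclei was not tested. GDA and SULT1E1 were higher in the gated nuclei than in the other deep barcodes. SULT1E1 had 559 UMIs in 107 gated nuclei and 2 UMIs in the 247 blastocyst nuclei (ratio 316, interval 87.1 to 2616).

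Several steroid genes were lower. HSD3B1 was at 72.9 CPM in the gated nuclei and 284 in the blastocyst nuclei, or 3.90-fold lower, CYP11A1 4.76-fold lower and CYP19A1 3.03-fold lower. PTGFR, the prostaglandin F receptor, had 2 UMIs against 95. In the steroid and prostaglandin list 8 of 19 genes were at least 2-fold lower and SULT1E1 was the 1 that was higher, beside 12.1% and 14.1% of all genes. Against the full 377 blastocyst nuclei 8 of 20 were lower and 4 higher.

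Other genes that stood apart from the blastocyst included TLL1, at 1787 CPM against 330 (ratio 5.41), and SLC40A1, at 154 against 9.86. SLC9A3 was at 166 CPM against 23.1, EPAS1 at 357 against 129, and TGFBR2 at 59.2 against 6.45. CLSTN2, a calsyntenin, was at 2045 CPM against 184, and KCNB2, a potassium channel, at 819 against 29.6. BCAS1 had 313 UMIs in the gated nuclei and 3 in the blastocyst nuclei. RADX had 329 UMIs against 1 (ratio 372, interval 66.3 to 14734), but against the full 377, which held 25 UMIs of it, the ratio was 21.9 (14.6 to 34.4).

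Lowest against the blastocyst nuclei was PIWIL2, a piRNA pathway protein, with 2 UMIs in all gated nuclei against 538, or 238-fold lower (65.6 to 1970). FAM151A had 6 UMIs against 1033 and was 152-fold lower, and ACOT11, an acyl-CoA thioesterase, was at 6.43 against 552 and was 85.9-fold lower. These 3 genes were also near 0 in the other deep blastoid barcodes, with 0, 3 and 6 UMIs, and PIWIL2 and FAM151A were present in the other deep blastocyst nuclei, with 370 and 318 UMIs. STAT3 was 14.3-fold lower, or 39.1-fold against the full 377, and SMAD7, a TGF-beta inhibitor, 5.68-fold lower. PECAM1, an endothelial adhesion gene that the blastocyst also expressed, had 1 UMI in the gated nuclei and 220 in the 247.

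Of 13 counted imprinted genes, 7 were at least 2-fold higher in the gated blastoid nuclei and 1 lower, where 14.1% of all genes were higher and 12.1% lower. Against the full 377 blastocyst nuclei 5 of 13 were higher. PEG3 was at 85.3 CPM against 12.1, and MEST at 24.9 against 2.28, a ratio of 10.9 that became 5.69 against the 377. RTL1 had 1 UMI against 51. Most cell cycle genes lay within 2-fold, with 2 of 26 S phase genes and 3 of 26 G2/M genes at least 2-fold higher and none lower, and MKI67 was at 87.4 CPM against 42.5.

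**Figure D4:**
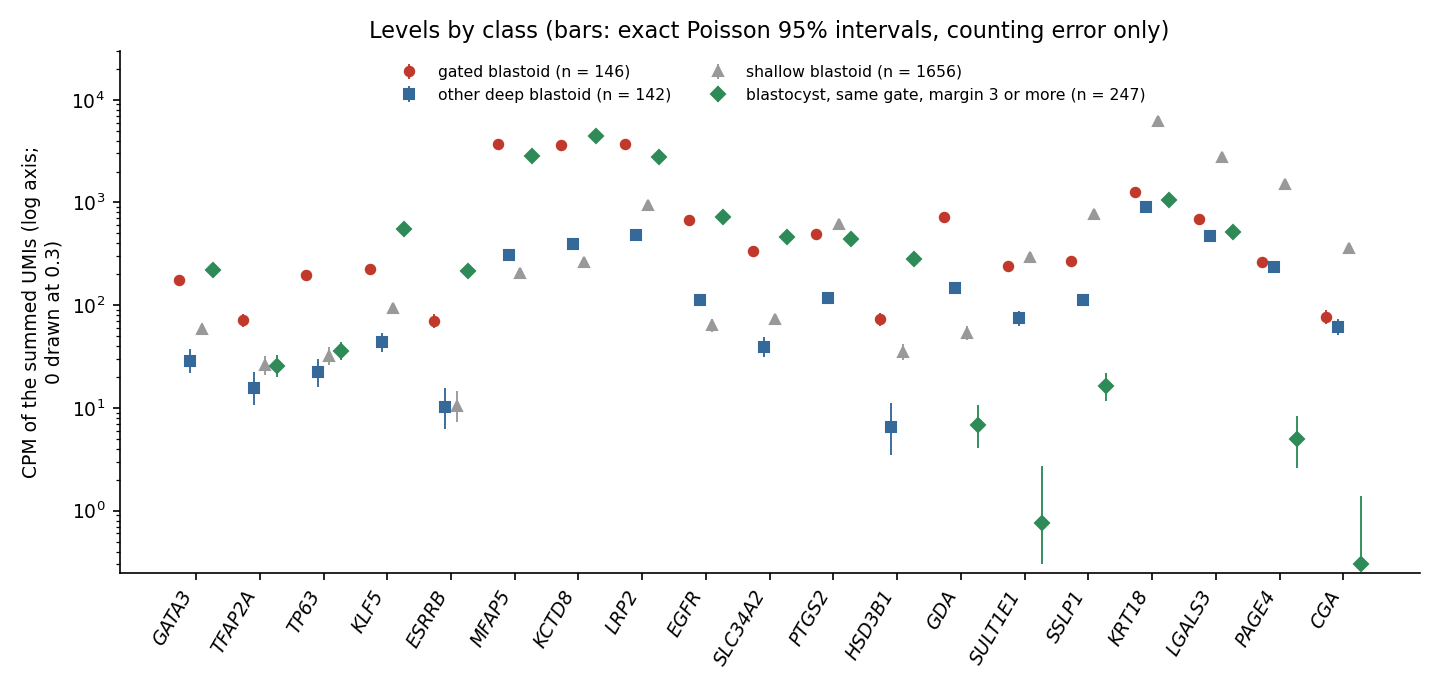
CPM of the summed UMIs (log axis, 0 drawn at 0.3) of 19 genes in the gated blastoid nuclei, the other deep blastoid barcodes, the shallow blastoid barcodes and the blastocyst nuclei under the same gate with a margin of at least 3 UMIs. Bars are exact Poisson 95% intervals and cover counting error only. MFAP5 is at 3713 and 2827 CPM in the gated classes and at 307.7 or less in the others, whereas KRT18, PAGE4 and CGA are highest in the shallow barcodes and CGA has no UMI in the blastocyst nuclei.

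Heterogeneity within the gated nuclei was described first by the spread of each gene around its expectation from depth. For 4796 genes with at least 100 UMIs, the residual variance, which is 1 under counting noise alone, had a median of 1.47. It was at least 2 in 955 genes (19.9%), or in 112 of 1264 genes (8.86%) after thinning to 4000 UMIs. Without thinning it was at least 10 in 46. Of those 46 genes, 4 had over 40% of their UMIs in 1 nucleus. Among these 4 was KCNH7, a potassium channel with 204 UMIs, of which 143 were in 1 nucleus. FN1, fibronectin, was below that share, with 97 of its 330 UMIs in 1 nucleus.

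Other variable genes were spread over many nuclei. KCTD8 had a residual variance of 49.7 with 3.25% of its UMIs in the highest nucleus, MFAP5 of 23.0 with 2.84%, TLL1 of 18.4 with 3.05% and LRP2 of 19.9 with 3.73%. The 5 nuclei highest for MFAP5 held 11.7% of its UMIs, where the 5 deepest nuclei held 8.53% of all UMIs. FHIT, a large gene at a fragile site, had a residual variance of 63.5 and ran from 0 to 27371 CPM with a median of 1485. GALNT17 and SULT1E1 had 33.5% and 35.1% of their UMIs in 5 nuclei, RADX 36.8%, PLA2G4A 44.4% and FN1 56.7%.

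The spread of each list among the members was described after each nucleus was thinned to 4000 UMIs. The neural adhesion list had the highest variance relative to its mean, 17.2 times, and ran from 1 to 171 UMIs per nucleus with a median of 17. Ruminant placental genes, a list that holds MFAP5, ran from 3 to 61 UMIs with a median of 28 and a variance 5.29 times the mean, and the hypoblast and endoderm list, which holds LRP2, was at 4.62 times. G2/M genes ran from 0 to 27 with a median of 9.5 and a variance 3.41 times the mean. Trophoblast factors ran from 0 to 15 with a median of 5 and a variance 1.59 times the mean. S phase, imprinted and chromatin genes were at 1.46, 1.21 and 1.13 times, where counting noise alone gives 1. Beyond counting noise this measure also rises with the mean. The mean was 27.1 UMIs for ruminant placental genes, 10.3 for G2/M genes and 5.39 for trophoblast factors. The order of the lists is therefore in part one of abundance.

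RIMKLB, a ligase that makes N-acetylaspartylglutamate, varied with MFAP5. RIMKLB had 4672 UMIs in the gated nuclei, or 2003 CPM, and ran from 0 to 4167 CPM with a median of 2009. In the RefSeq annotation of assembly ARS-UCD2.0, 1 protein-coding gene lies between RIMKLB and MFAP5 on chromosome 5. The models of RIMKLB and MFAP5 do not overlap there, and the annotation behind the counts was not given in the sources used here. Whether reads of neighbouring transcripts were assigned to each other was not tested.

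Over the 146 nuclei the Spearman correlation of CPM was 0.65 for RIMKLB and MFAP5. This is a description over nuclei of 1 library, which share depth and capture. In the blastocyst library the value was 0.76 over the 377 nuclei under the same gate, 0.70 over the 247 with a margin of at least 3, and 0.63 over the 316 other deep nuclei, so it was not limited to gated nuclei there. Over the 121 other deep blastoid barcodes without both gene sets it was 0.13. For comparison, the median over 820 pairs of 41 variable genes was 0.099. KCTD8 with TLL1 was at 0.46, and the lowest pair was SULT1E1 with ELOVL6 at -0.31. Of 865 genes with at least 500 UMIs, those most like GATA3 over the nuclei were NT5DC3 (0.37), CELF2 (0.36), PTGS2 (0.34), PKP2 (0.30) and ELOVL6 (0.28), all weak values in sparse counts.

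**Figure D5:**
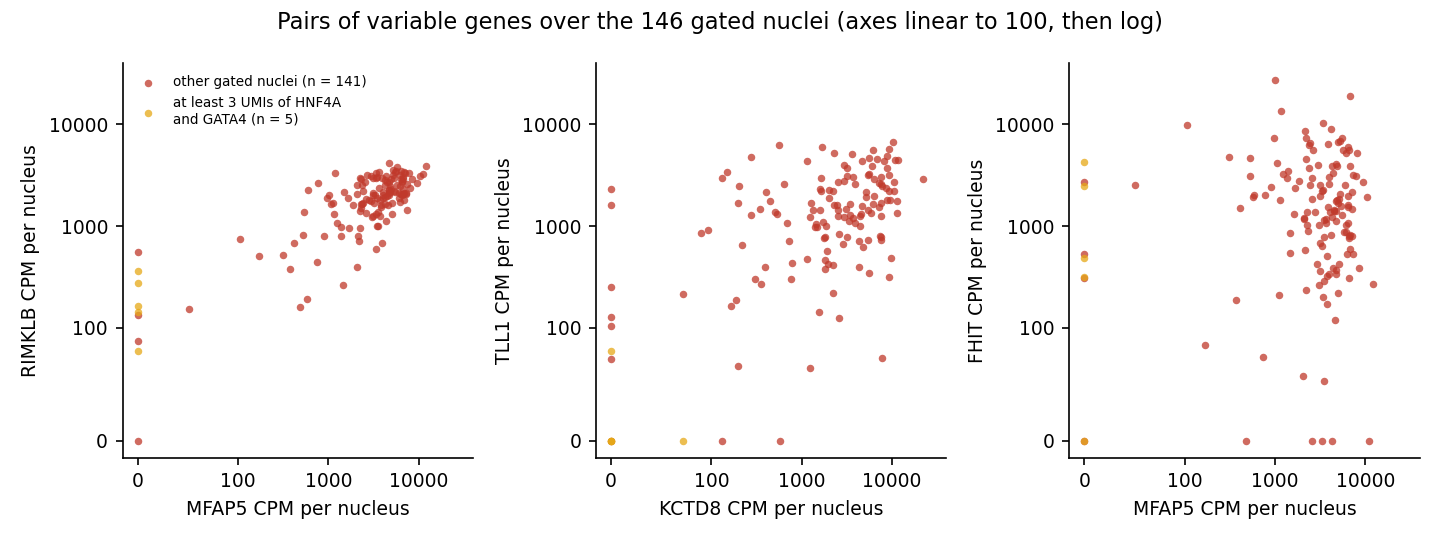
CPM per nucleus of RIMKLB against MFAP5, TLL1 against KCTD8, and FHIT against MFAP5 over the 146 gated nuclei, with axes linear to 100 and logarithmic above. Each point is a nucleus, and the 5 nuclei with endoderm regulators are in yellow. RIMKLB and MFAP5 have a Spearman correlation of 0.65 and TLL1 and KCTD8 of 0.46, and all 5 yellow nuclei have no MFAP5 UMI.

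Those 5 gated nuclei carried at least 3 UMIs of the endoderm regulators HNF4A and GATA4 together. They had 14393, 14019, 12556, 12341 and 5549 UMIs in all, but only 3, 2, 3, 1 and 1 UMIs of the trophoblast gate genes, and none of MFAP5. Their HNF4A UMIs were 23, 7, 7, 0 and 2, which were all 39 of the HNF4A UMIs in the gated nuclei. Their GATA4 UMIs were 5, 5, 3, 3 and 2, of 20 in all. FGF10, a fibroblast growth factor, had 6, 22, 0, 0 and 7 UMIs in them, and APOB, an apolipoprotein of endoderm, had 30 in the fourth. Their hypoblast and endoderm markers summed to 2345 CPM against 162 in the remaining 141 nuclei, a gap that the choice by HNF4A and GATA4 fixes in part. The 8 markers other than these were at 1376 CPM against 161. Per nucleus they ran from 143 to 5267 CPM with a median of 360 in the 5, against a median of 139 in the 141. The highest nucleus thus held most of the sum of the 5. Their trophoblast markers summed to 2260 against 7471. Of the 6 members with a margin of 1 or 2 UMIs, 4 were among them. A barcode just outside the gate, with no UMI of either gate set, had 26 HNF4A and 12 GATA4 UMIs.

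Clustering of the 146 nuclei at resolution 0.5 gave 3 sub-groups of 75, 40 and 31 nuclei, but the division was not stable. Resolution 0.3 gave 1 group and resolution 1 gave 6. MFAP5 was at 3820, 4574 and 2508 CPM in the 3 sub-groups and the summed gate genes at 1002, 1040 and 986 CPM. The genes with the highest ratios are given as a description, since they defined the sub-groups. In the first, FHIT was 3.00 times its level in the other gated nuclei, and GPC6 led with 82.4% of its UMIs in 1 nucleus. In the second, the highest ratios were 2.14 for PDPN, podoplanin, 2.08 for GALNT17 and 1.90 for ANXA1. In the third, FMNL2 and PLA2G4A were at 2.95 and 2.89 times, and KCNH7 led with 96.6% of its UMIs in 1 nucleus. Of the 5 nuclei with endoderm regulators, 4 were in the first sub-group and 1 in the third.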

How the data were processed

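The deposited matrices hold a UMI count for each gene in each barcode. Per the file headers they came from Cell Ranger 7.2.0, while the submitters' processing notes name Cell Ranger 7.1.0 and Seurat 4.3.0. The genome build is not given in the sources used here. Of 35643 features, 16116 had no symbol, and 0 identifiers matched the reference gene table, so symbols come from the deposited feature lists and genes without a unique one were not analysed here. Some genes that the naming rule picks are not reported here. The gate was applied to the counts as deposited. UMIs were summed per class and scaled to CPM. Exact Poisson intervals were given for CPM, exact conditional intervals for ratios and exact (Clopper-Pearson) intervals for shares, all at 95%. Genes needed 50 UMIs in the 2 sums to be counted, deposited counts under 3 were set to 3 in log2 ratios, and gate genes were left out of list counts. With 1 library per group no test was made, and at least 2-fold apart was used as the call. Sub-groups came from scanpy 1.11.5 and leidenalg 0.10.2 with 1000 variable genes, 15 principal components and 15 neighbours. Doublet scores were removed at 0.8% per 1000 barcodes as an alternative only. Residual variance is Pearson residual variance against depth. Named genes are those of 22 lists and the markers, the 10 highest and 10 lowest ratios per comparison (at least 200 UMIs and 100 CPM), the 15 most variable genes, 8 per sub-group and the 5 most like GATA3. The members, lists and tests were chosen with earlier results of these data known, and 2 alternatives were added after seeing the data. The ratio and variance steps were tested on simulated data.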

Additional observations from a re-analysis of the deposited data

How the results depend on the processing

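No paired analysis was possible because each group had 1 library and no test was made. The share of deep barcodes that met the gate stayed between 48.6% and 52.7% under every alternative run for it. With every barcode thinned to 4000 UMIs, the genes at least 2-fold apart from the other deep barcodes were 857 higher and 840 lower, against 1536 and 1690, and those apart from the blastocyst nuclei under the same gate were 725 higher and 935 lower, against 1413 and 1589. Fewer UMIs were then summed and fewer genes counted. With at least 200 UMIs in the 2 sums the counts were 755 and 736, and 626 and 776. With at least 20 UMIs, 2126 genes were higher than in the blastocyst nuclei, and the median log2 ratio of the mesenchyme list in that comparison turned from -1.15 to 2.42, as more genes of the list were counted. The number of sub-groups was 1 at resolution 0.3 and 6 at resolution 1. Genes with a residual variance of at least 2 numbered 112 of 1264 (8.86%) after thinning, which leaves fewer UMIs per gene. Of the other settings, 59 main values, 497 list medians and 1436 named gene ratios stayed within the set limits, and 25 list medians and 201 gene ratios moved past them, of which 4 and 12 changed sign, all from main ratios under 2-fold. Leaving out barcodes with both gene sets raised the ratios given for both settings in the text. Genes with under about 50 UMIs in the 2 sums, such as ELF5, and the share of nuclei with a UMI of sparse factors are limited by depth. Leaving out a replicate was not possible.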

Other observations

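Outside the comparisons, the 32 deep blastoid barcodes with at least 3 UMIs of both gate sets held 753764 UMIs. Their trophoblast markers summed to 4381 CPM and their neuronal adhesion markers to 4677, between the gated nuclei and the other deep barcodes for each. In the blastocyst library 5 deep barcodes met the same condition. The 5 gated nuclei with endoderm regulators had epiblast markers at 510 CPM and neuronal adhesion markers at 1359 CPM, against 247 and 210 in the remaining 141 gated nuclei. The neuronal adhesion sum was uneven. Per nucleus it ran from 79.6 to 2710 CPM with a median of 360 in the 5, against a median of 167 in the 141. Blood and endothelial markers were at 0 in all 5.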
